A study of Mus musculus with 8 samples.

Results

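The nuclear receptor superfamily consists of transcription factors, most of which bind DNA through a pair of zinc fingers. Most of its members are switched by a small lipophilic ligand such as a steroid, thyroid hormone, retinoic acid, vitamin D or a fatty acid. Here 39 of its genes were examined in mouse T helper cells of the Th17 type, with the ROR, REV-ERB and NR4A families left aside except for Rorb, which the list of members holds. They were taken by gene symbol, from probe sets (the groups of probes that report 1 transcript) that the array's annotation gives to that symbol alone. Of the 39 members, 37 had such a probe set, 1 each, among 19938 genes listed this way. Nr1h2 and Nr2e3 had none and were not analysed here.

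The arrays were hybridised with RNA from naive CD4 T cells that had been activated through CD3 and CD28 and differentiated with IL-1, IL-6 and IL-23, cytokines known to give pathogenic Th17 cells. There were 2 experiments with 2 arrays per group, labelled as biological replicates. One set SRC-3-deficient cells, from mice whose source was labelled SRC-3 (f/f), against their wild type, and the other set RORγt-deficient cells, from RORgt (-/-) mice, against theirs. The f/f notation names a floxed allele, and the labels give neither the Cre driver nor the age or strain of the mice. The labels do not say whether replicates came from separate animals, so a p-value reflects only how these samples spread. Every group received the same cytokines, and cells activated without cytokines were not analysed here.

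When a nuclear receptor binds its ligand, the last helix of the ligand-binding domain folds into a surface that takes up coactivators of the p160 family. SRC-3, encoded by Ncoa3, is one of these coactivators and brings histone acetyltransferases to the target gene. In T cells the receptors for retinoic acid, vitamin D, glucocorticoids and oxysterols are known to shape effector and regulatory fates, and RORγt, itself a nuclear receptor, directs the Th17 fate. The members were therefore read as possible partners of SRC-3 besides the RORs, with 2 questions: which of them Th17 cells express, and whether their transcripts depend on SRC-3 or on RORγt.

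The whole-array facts that bear on these genes are few. Replicate arrays correlated at 0.989 to 0.997 (Pearson's r, across the 11128 genes tested). Ncoa3 had log2 signals of 11.15 and 10.97 on the SRC-3-deficient arrays, against 11.76 and 11.53 on the SRC-3 wild-type arrays (log2 fold change −0.58, SE 0.09, limma adjusted p = 0.0567). By this probe set 0.667 of the wild-type signal remained in the deficient cells, and which exons its probes read was not tested. Il17a, the gene of the signature Th17 cytokine, had 7.52 and 7.16 on the RORγt-deficient arrays, against 11.63 and 11.27 on the RORγt wild-type arrays (limma adjusted p = 4.86e-05). The 5 measured T cell markers were detected in every group. Of the Th17 markers, Il17a, Il17f, Il23r and Ccr6 fell and Ccl20 rose among 6 tested in the RORγt comparison, and Il17f fell in the SRC-3 comparison (−1.03, limma adjusted p = 0.0347). In the SRC-3 comparison Il17a (−1.10, limma adjusted p = 0.0567), Il23r (−0.68, 0.108) and Rora (−0.40, 0.360) were lower without overlap but did not pass. Ccr6 and Ccl20 had estimates of 0.21 each there and did not pass. The SRC-3 call of Il17f was lost with array weights (adjusted p = 0.0704), with its 4 arrays alone (0.267) and in 7 of 8 fits that left out 1 array, all but the one without SRC-3 wild-type replicate 1 (0.0507 to 0.141). Ccl20 (0.75, limma adjusted p = 0.0335) was lost when either RORγt-deficient array (0.195 and 0.0662) or wild-type replicate 2 (0.49, adjusted p = 0.177) was missing. Sex differed between the RORγt groups: the Y-linked Eif2s3y had 10.47 and 10.48 on the deficient arrays, against 4.84 and 4.63 on the wild-type arrays, so sex and RORγt genotype cannot be told apart in any result below. In the SRC-3 experiment only deficient replicate 1 carried that Y-linked signal (11.16, against 4.87 on deficient replicate 2 and 4.91 and 4.59 on the wild-type arrays).

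Of the 37 nuclear receptor genes measured, 20 stood clear of background in at least 1 group. The limit of detection was set on each array as the 95th percentile of 1223 probe sets for olfactory, vomeronasal and trace amine receptors, genes not known for a role in T cells, and it lay between 7.21 and 7.41 on the log2 scale. A gene was called detected in a group if both of its arrays exceeded that limit. By this measure 18 of the 20 were detected in all 4 groups, and Thrb and Nr2f2 in SRC-3-deficient cells alone. The share was 54.1% in SRC-3-deficient cells, against 48.6% in SRC-3 wild-type cells, and 48.6% in both RORγt groups. Over all 19938 genes the share was 61.7% in SRC-3-deficient cells, against 61.5% in SRC-3 wild-type cells. It was 63.1% in RORγt-deficient cells, against 62.9% in RORγt wild-type cells. In each group a smaller share of these 37 members than of all genes was detected. The 37 leave out the ROR, REV-ERB and NR4A families except Rorb, and this gap was not tested. Probe sets differ in how well they bind, so a signal above the limit says that a transcript was seen and not how it ranks against another gene.

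**Figure D1:**
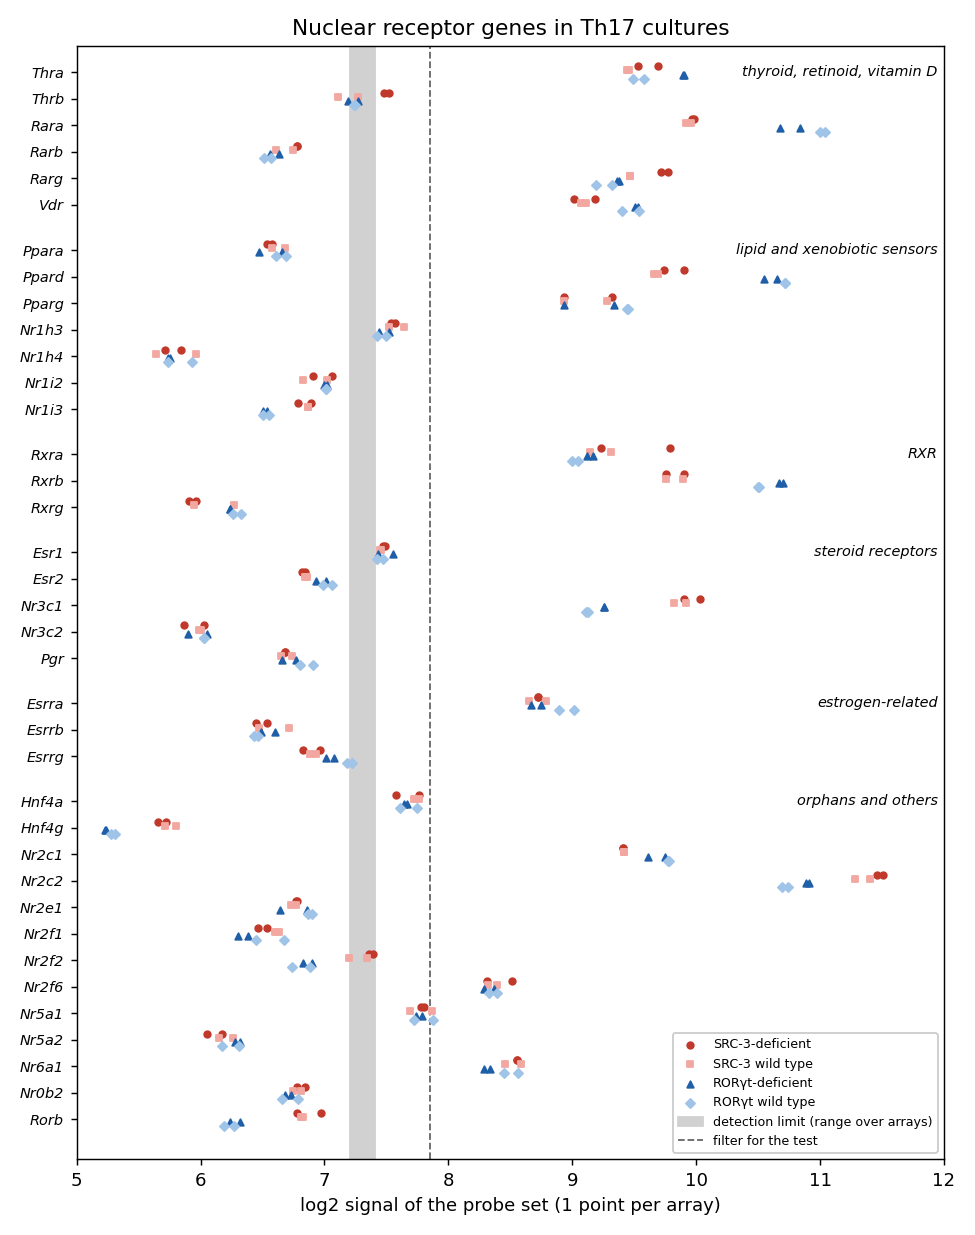
Log2 signal of each of the 37 measured members on every array (1 point per array; colour and marker give the group), sorted by kind of receptor. The grey band is the range of the detection limit over the arrays (7.21 to 7.41) and the dashed line is the filter for the test (7.85). All but 1 of the 15 members tested, Nr5a1, lie right of the line on all arrays, while most steroid receptor and xenobiotic sensor genes lie left of the band.

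Of the receptors for thyroid hormone, retinoic acid and vitamin D, 4 of 6 were detected in all groups. These were Thra, the thyroid hormone receptor α, Rara and Rarg, the retinoic acid receptors α and γ, and Vdr, the vitamin D receptor. Thrb, the thyroid hormone receptor β, was close to the limit: its signals were 7.52 and 7.48 on the SRC-3-deficient arrays, against 7.11 and 7.27 on the SRC-3 wild-type arrays, while the RORγt experiment gave 7.27 and 7.19 on deficient arrays, against 7.24 and 7.25 on wild-type arrays. Rarb, the retinoic acid receptor β, stayed below the limit on every array, with a highest signal of 6.78. Rarb is known from other tissues as a gene that retinoic acid itself induces through a response element close to its start. Of the retinoid receptors, then, α and γ were seen in these cultures and β was not.

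The promoters of the 3 retinoic acid receptors show where the family's own binding motif falls. Each line below is a stretch of 300 bases from RefSeq (build GRCm38.p6), 5′ to 3′ along the gene, from 250 bases before to 50 after an annotated start, with motif matches in capitals. They are shown because Rara is a member that changed, Rarg had the smallest p in the SRC-3 comparison, and Rarb is the undetected member of the trio.
Rara promoter, chr11:98964622-98964921, plus strand: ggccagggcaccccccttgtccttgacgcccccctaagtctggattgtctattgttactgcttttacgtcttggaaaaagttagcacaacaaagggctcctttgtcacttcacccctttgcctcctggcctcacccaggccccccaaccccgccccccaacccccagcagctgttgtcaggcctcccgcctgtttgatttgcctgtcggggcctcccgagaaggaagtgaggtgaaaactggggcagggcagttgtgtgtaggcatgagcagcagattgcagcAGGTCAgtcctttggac
Rarg promoter, chr15:102257473-102257772, minus strand: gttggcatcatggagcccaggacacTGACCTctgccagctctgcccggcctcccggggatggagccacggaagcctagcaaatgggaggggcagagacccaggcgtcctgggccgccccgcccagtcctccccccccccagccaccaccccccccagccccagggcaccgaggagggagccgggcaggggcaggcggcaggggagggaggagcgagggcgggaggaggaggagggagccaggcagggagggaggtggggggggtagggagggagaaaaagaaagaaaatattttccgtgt
Rarb promoter, chr14:16575427-16575726, minus strand: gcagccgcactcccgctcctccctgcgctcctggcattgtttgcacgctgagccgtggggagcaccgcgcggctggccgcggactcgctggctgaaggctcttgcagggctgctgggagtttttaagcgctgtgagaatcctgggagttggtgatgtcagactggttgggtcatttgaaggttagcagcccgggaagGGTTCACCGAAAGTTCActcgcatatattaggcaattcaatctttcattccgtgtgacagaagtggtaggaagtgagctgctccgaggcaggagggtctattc
The capitals in the Rara and Rarg stretches mark the half-site AGGTCA, which most nuclear receptors recognise, at bases 34 to 39 after the Rara start and, on the opposite strand (TGACCT), at bases −225 to −220 of Rarg. In the Rarb stretch they mark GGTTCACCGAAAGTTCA, at bases −53 to −37, a match to the retinoic acid response element searched as GGTTCA and AGTTCA, in that order, with any 5 bases between them. Both motifs were searched on both strands, and they do not overlap each other here. AGGTCA was present in 18.5% of the 54 promoters listed for 33 of the measured members and in 16.3% of all 32851 promoters of that length. The longer element was present in 1 member promoter, that of Rarb, and in 2 of all promoters. Rarb was known beforehand for a retinoic acid response element near its start, and the pattern searched has the half-sites and spacing of that element. The match in Rarb and the rarity of the pattern are therefore no independent result. Direct repeats with other half-sites or spacings were not searched, so these counts show no enrichment among the members. A match is a description of the letters and was not tested for binding. Rara has 3 more annotated starts and Rarg 1 more, none with a match.

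Of the lipid and xenobiotic sensors, 3 of 7 measured were detected in all groups. Ppard and Pparg, fatty acid receptors known for fat oxidation and for adipocyte differentiation, had signals between 9.66 and 10.72 and between 8.93 and 9.45. Nr1h3, the oxysterol receptor LXRα, was seen just above the limit (7.42 to 7.64). Ppara (at most 6.69), the bile acid receptor gene Nr1h4 (at most 5.96), and the xenobiotic receptor genes Nr1i2 (at most 7.06) and Nr1i3 (at most 6.89), all known from liver, were not detected in any group. All 3 genes of the RXRs, the common heterodimer partners of the receptors named so far, were measured. Rxra (9.00 to 9.79) and Rxrb (9.76 to 10.70) were detected in all groups, and Rxrg (at most 6.33) was in none.

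Among the 5 steroid receptor genes, the glucocorticoid receptor gene Nr3c1 was the one that stood well clear of the limit, with signals between 9.11 and 10.03. Esr1, the estrogen receptor α, lay just above it in every group (7.42 to 7.55). Esr2 (at most 7.06), the mineralocorticoid receptor gene Nr3c2 (at most 6.05) and the progesterone receptor gene Pgr (at most 6.91) were not detected. Of the estrogen-related receptors, Esrra, known for its role in mitochondrial gene expression, was detected in all groups (8.65 to 9.01), whereas Esrrb (at most 6.71) and Esrrg (at most 7.22) were not.

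The remaining 13 measured members are orphan receptors and others without a classical hormone. The testicular receptor genes Nr2c1 (9.41 to 9.78) and Nr2c2 (10.69 to 11.51), Nr2f6 (8.29 to 8.51), an orphan receptor known in mouse T cells as a restraint on Th17 cytokine genes, and Nr6a1 (8.29 to 8.59), the germ cell nuclear factor, were detected in all groups. Hnf4a, known from liver (7.58 to 7.76), and Nr5a1, the steroidogenic factor of adrenal and gonad (7.69 to 7.88), were also above the limit, but close to it. Nr2f2 (COUP-TFII) exceeded the limit in SRC-3-deficient cells alone, with 7.39 and 7.36, against 7.20 and 7.34 in SRC-3 wild-type cells, and the difference did not pass (limma adjusted p = 0.720, fitted without a filter). Hnf4g, Nr2e1, Nr2f1, Nr5a2, Nr0b2 and Rorb were below the limit in all groups, with highest signals of 5.80, 6.90, 6.67, 6.32, 6.84 and 6.97. At a stricter limit, the 99th percentile of the same probe sets, 14 members were detected in at least 1 group, all of those tested below except Nr5a1.

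Markers of other cell types show what else the cultures could have held. Fewer cells of a type and less RNA per cell cannot be told apart in such bulk samples. Of the 7 markers of monocytes and macrophages, cells known for Pparg and Nr1h3, only Cd68 was detected, and Lyz2, Csf1r, Itgam, Adgre1 and C1qa were below the limit in every group. Cd68 had 9.79 and 10.07 in RORγt-deficient cells, against 10.33 and 10.26 in wild type (−0.37, limma adjusted p = 0.0834), and passed in 5 alternatives (adjusted p from 0.0252 to 0.0472). The summed linear signal of that list was 1113 to 1218 in SRC-3-deficient cells, against 1023 to 1070 in SRC-3 wild-type cells, and 1454 to 1632 in RORγt-deficient cells, against 1838 to 1863 in RORγt wild-type cells. Of 6 dendritic cell markers Flt3 and Zbtb46 were detected, with signals of at most 7.72 and 7.69 and a summed signal of 767 to 794 in SRC-3-deficient cells, against 776 to 843 in wild type, and of 696 to 747 in RORγt-deficient cells, against 751 to 782 in wild type. None of 5 NK cell markers was detected (summed signal at most 300 on any array). Of 5 B cell markers Cd79b was detected in all groups and Pax5 in the SRC-3 groups (at most 7.44), while Cd79a and Ms4a1 were below the limit. Their summed signal was 598 to 646 in SRC-3-deficient cells, against 594 to 678 in wild type, and 545 to 600 in RORγt-deficient cells, against 594 to 652 in wild type. Of the CD8 pair, Cd8b1 was detected and Cd8a was not, with sums of 589 to 624 in SRC-3-deficient cells, against 460 to 506 in wild type, and of 706 to 708 in RORγt-deficient cells, against 626 to 659 in wild type. Of the γδ T cell markers Sox13 alone was measured, and it was detected. The part of these cells in any member's signal was not tested.

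To test for changes, group means of all 8 arrays were fitted together with limma and p-values were adjusted over all 11128 genes with a signal of 7.85 or more, the median over the whole table, on at least 2 arrays. Of the 37 measured members, 15 passed this filter. All of them but Nr5a1 did so on every array, and Nr5a1 on 2, with values between 7.69 and 7.88. The nearest member outside was Hnf4a, at most 7.76. A change below is given as a log2 fold change, deficient over wild type, with its standard error from the fit and n = 2 arrays per group.

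The comparison of SRC-3-deficient with SRC-3 wild-type cells asks whether the transcripts of SRC-3's possible partners depend on the coactivator. None of the 15 members tested changed at an adjusted p below 0.05 (lowest adjusted p 0.141), in a comparison in which 0.225% of all genes did. The groups did not overlap for 6 of 15 members (40.0%), against 37.2% of all genes, and 2 members had an unadjusted p below 0.05, where 12.5% of all genes did. The median log2 fold change of the members was 0.03, against 0.02 for all genes. With so small a share among all genes, a count of 0 in 15 is no result about the members.

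The estimates give only a rough bound on how large a change could have been missed. Their standard errors were pooled over the arrays of both experiments. Across genes, the median SD of replicates was 0.07 in SRC-3-deficient and 0.07 in SRC-3 wild-type cells. It was 0.04 in RORγt-deficient and 0.05 in RORγt wild-type cells. The intervals given here for the SRC-3 comparison may therefore be too narrow. Leaving out Pparg and Rxra, whose replicates varied most, the 95% intervals of the other 13 members lay between −0.18 and 0.42 on the log2 scale, which is 0.882-fold to 1.34-fold. The interval was wider for Pparg (−0.40 to 0.44) and for Rxra (−0.08 to 0.66). For Rara the interval was −0.12 to 0.19, for Vdr −0.18 to 0.19, for Nr3c1 −0.05 to 0.25, for Rxrb −0.17 to 0.17 and for Esrra −0.17 to 0.17. Each of these intervals spanned 0, so neither direction was shown for the receptors of vitamin D and glucocorticoids, for RARα, RXRβ or ERRα.

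Rarg (probe set 10432972, chromosome 15) had the smallest p. Its log2 signals were 9.77 and 9.72 on the SRC-3-deficient arrays, against 9.47 and 9.47 on the SRC-3 wild-type arrays. Both deficient arrays lay above both wild-type arrays, with a log2 fold change of 0.27 (SE 0.06, limma adjusted p = 0.141), which does not pass (adjusted p from 0.0638 to 0.519 over the alternatives). Nr2c2, which like Nr2c1 is an orphan receptor that binds direct repeats of AGGTCA, had 11.51 and 11.46 on deficient arrays, against 11.28 and 11.40 on wild-type arrays (0.15, SE 0.06, limma adjusted p = 0.398). Thra had 9.69 and 9.53 on deficient arrays, against 9.46 and 9.44 on wild-type arrays (0.16, SE 0.07, limma adjusted p = 0.411). Ppard had 9.74 and 9.90 on deficient arrays, against 9.69 and 9.66 on wild-type arrays (0.14, SE 0.07, limma adjusted p = 0.462). For each of these genes the deficient arrays were the higher ones without overlap, by less than the test required.

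Rxra and Pparg could not be judged closely. Rxra had 9.23 and 9.79 on the SRC-3-deficient arrays, against 9.14 and 9.31 on the SRC-3 wild-type arrays, so that its estimate of 0.29 rests on deficient replicate 2 (0.01 without it). Pparg had 9.32 and 8.93 on deficient arrays, against 9.28 and 8.93 on wild-type arrays. In both genotypes replicate 1 was the higher one for Pparg, and the groups coincided (0.02, 95% interval −0.40 to 0.44). The other 8 members, Rara, Vdr, Rxrb, Esrra, Nr2c1, Nr2f6, Nr5a1 and Nr6a1, had estimates between −0.01 and 0.05. Nr3c1 had 0.10.

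**Figure D2:**
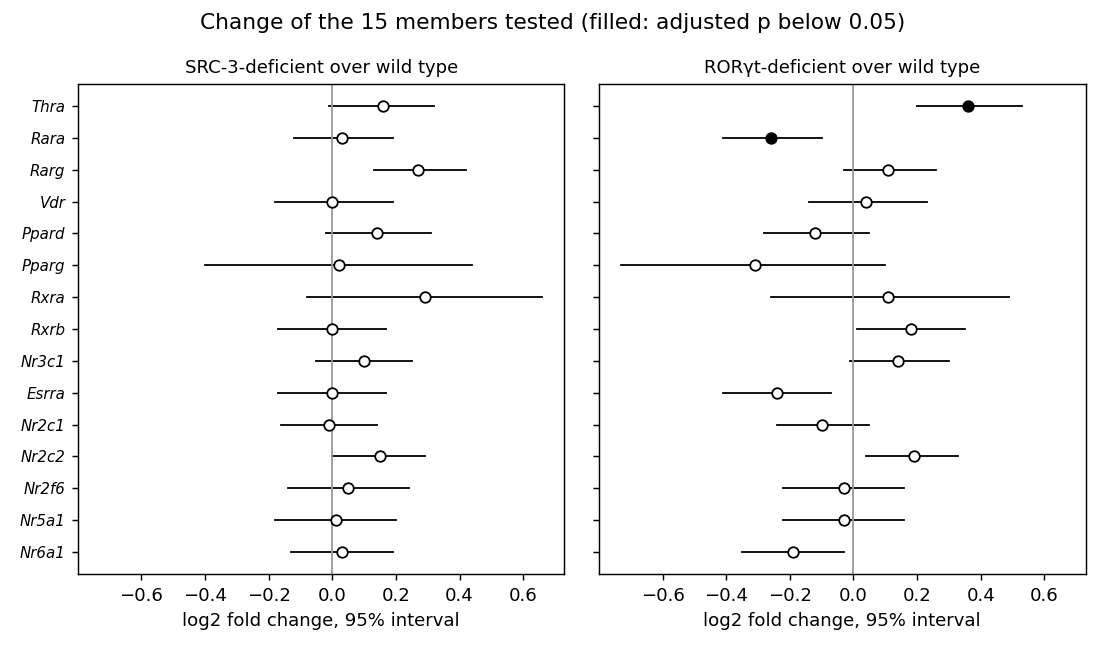
Log2 fold change of the 15 members tested, SRC-3-deficient over wild type (left) and RORγt-deficient over wild type (right), with the 95% interval of the limma fit as a line; filled points passed an adjusted p of 0.05. No point is filled on the left, and Thra (0.36) and Rara (−0.26) are filled on the right.

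The comparison of RORγt-deficient with RORγt wild-type cells asks the same for the receptor that directs the Th17 fate. Here 2 of 15 members passed (13.3%), Thra higher and Rara lower in the deficient cells. Of all genes 19.4% passed, 10.0% higher and 9.37% lower, so the members' count is no larger than the share among all genes. The groups did not overlap for 12 of 15 members (80.0%), against 70.0% of all genes, and 6 members had an unadjusted p below 0.05, where 34.6% of all genes did. The median log2 fold change was −0.03 for the members and 0.00 for all genes, and the median size of a change without its sign was 0.14 for the members and 0.13 for all genes.

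Thra, the α receptor of thyroid hormone (probe set 10381006, chromosome 11), stood at 9.90 and 9.89 on the log2 scale in RORγt-deficient cells, against 9.58 and 9.49 in RORγt wild-type cells. The deficient arrays were both higher than the wild-type arrays and lay closer together. Thra rose 1.29-fold (log2 fold change 0.36, SE 0.07, 95% interval 0.20 to 0.53, limma adjusted p = 0.0131). The call was lost when any 1 RORγt array was left out. With a deficient array missing, adjusted p was 0.0888 (replicate 1) or 0.0650 (replicate 2), and with a wild-type array missing 0.0565 (replicate 1) or 0.0961 (replicate 2), with estimates between 0.32 and 0.41. The 3′ end of Thra overlaps by 1075 bases with that of Nr1d1, which encodes the circadian repressor REV-ERBα and runs the other way on chromosome 11 (GRCm38.p6, Thra from 98740776 to 98769006 and Nr1d1 from 98767932 to 98775377). Nr1d1 had 8.28 and 8.42 on RORγt-deficient arrays, against 9.42 and 9.38 on wild-type arrays (−1.06, limma adjusted p = 4.85e-04), so the neighbours moved in opposite directions. Which probes of either gene lie in the overlap was not tested.

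Rara, the retinoic acid receptor α (probe set 10381082, chromosome 11), stood at 10.68 and 10.84 in RORγt-deficient cells, against 11.00 and 11.04 in RORγt wild-type cells. Both deficient arrays were lower, and their own gap was as wide as that to the nearer wild-type array. Rara fell to 0.835 of its wild-type level (log2 fold change −0.26, SE 0.07, 95% interval −0.41 to −0.10, limma adjusted p = 0.0330). Its call was lost with no filter (adjusted p = 0.0565) and when deficient replicate 1 was missing (−0.18, adjusted p = 0.214). It was also lost when wild-type replicate 1 (−0.28, adjusted p = 0.117) or replicate 2 (−0.24, adjusted p = 0.166) was missing. Rarg was higher on both RORγt-deficient arrays, with 9.38 and 9.36, against 9.32 and 9.19 on the wild-type arrays (0.11, SE 0.06, limma adjusted p = 0.250), and did not pass.

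Several further receptors missed the threshold by little. Esrra had 8.75 and 8.67 on the RORγt-deficient arrays, against 8.89 and 9.01 on the wild-type arrays (−0.24, SE 0.07, limma adjusted p = 0.0580). Nr2c2 had 10.91 and 10.89 on the deficient arrays, against 10.74 and 10.69 on the wild-type arrays (0.19, SE 0.06, limma adjusted p = 0.0756). Nr6a1, a repressor in the germ line and early embryo, had 8.34 and 8.29 on the deficient arrays, against 8.45 and 8.56 on the wild-type arrays (−0.19, SE 0.07, limma adjusted p = 0.0937). In each of these the 2 groups were apart without overlap.

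Neither RXR passed. Rxrb had 10.67 and 10.70 on the RORγt-deficient arrays, against 10.51 and 10.50 on the wild-type arrays (0.18, SE 0.07, 95% interval 0.01 to 0.35, limma adjusted p = 0.118), and it passed with array weights (adjusted p = 0.0349) and with the 4 arrays alone (0.0380). Rxra had 9.12 and 9.17, against 9.00 and 9.05 (0.11, SE 0.16, 95% interval −0.26 to 0.49, limma adjusted p = 0.664). The glucocorticoid receptor gene Nr3c1 had 9.26 and 9.26 on the deficient arrays, against 9.13 and 9.11 on the wild-type arrays (0.14, SE 0.07, limma adjusted p = 0.176). Both deficient arrays were the higher ones for all of these genes. Vdr, by contrast, overlapped, with 9.53 and 9.51 on deficient arrays, against 9.54 and 9.40 on wild-type arrays (0.04, 95% interval −0.14 to 0.23).

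The fatty acid receptors had lower signals without RORγt but did not pass. Ppard had 10.55 and 10.65 on the RORγt-deficient arrays, against 10.72 and 10.72 on the wild-type arrays (−0.12, SE 0.07, limma adjusted p = 0.291). Pparg had 8.93 and 9.34 on the deficient arrays, against 9.45 and 9.44 on the wild-type arrays (−0.31, SE 0.18, limma adjusted p = 0.260). The wild-type pair was tight and the deficient pair wide apart, so the estimate was −0.11 without deficient replicate 1 and −0.52 without deficient replicate 2. Nr2c1 (−0.10), Nr2f6 (−0.03) and Nr5a1 (−0.03) had adjusted p between 0.319 and 0.833. Of the genes close to the limit, Esr1 gave 0.04, Nr1h3 0.02, Thrb −0.02 and Hnf4a −0.02 in a fit without the filter.

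**Figure D3:**
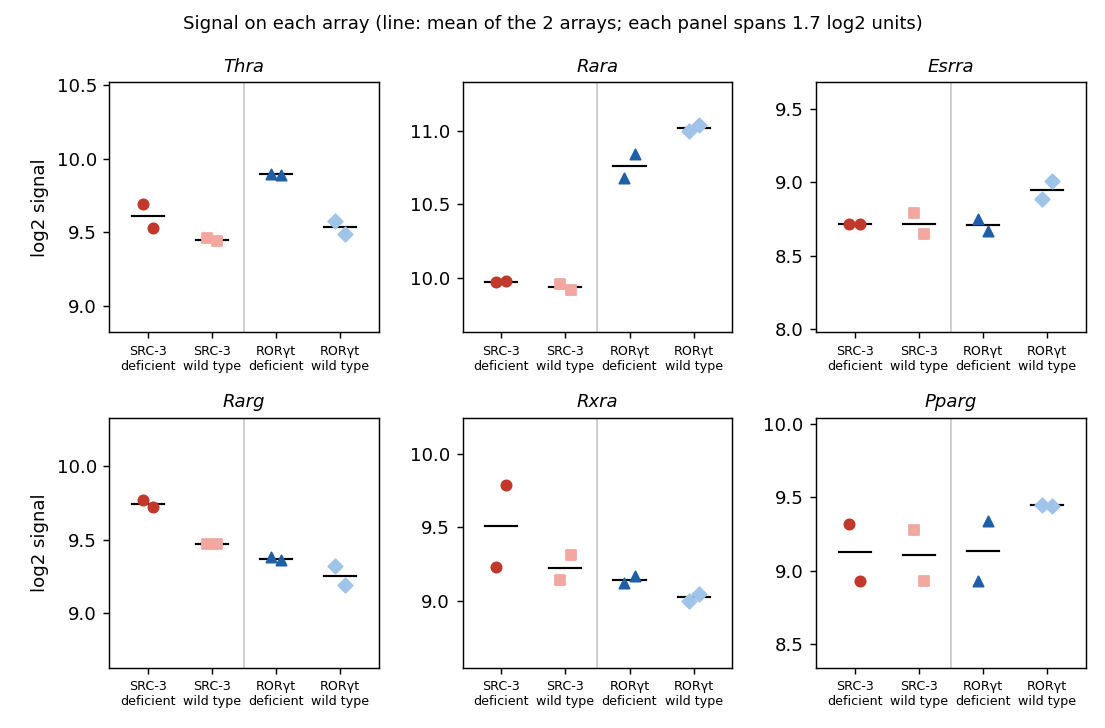
Log2 signal on each array for 6 members, with 1 point per array and the mean of a pair as a line; each panel shows the SRC-3 experiment left of the RORγt experiment, with deficient cells left of wild type in both, and every panel spans 1.7 log2 units. Thra is higher and Rara lower on both RORγt-deficient arrays, and the Rxra and Pparg pairs show the widest spread.

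The 22 members below the filter were fitted without it, together with all 19938 genes. None passed in either comparison by limma. The lowest adjusted p was 0.194 in SRC-3-deficient cells, where 0.155% of all genes passed in that fit, and 0.155 without RORγt, where 9.20% did. Of all 19938 genes in this fit, 2026 had an unadjusted p below 0.05 in SRC-3-deficient cells and 4515 without RORγt. Among these 22 members it was 1 in each comparison, which is no result about the members. In the SRC-3 comparison that member was Thrb (log2 fold change 0.31, SE 0.07), whose deficient signals of 7.52 and 7.48 lay above the wild-type signals of 7.11 and 7.27. In the RORγt comparison it was Nr2f1, below the detection limit throughout (−0.22, SE 0.08). The log2 fold changes of the 22 lay between −0.17 and 0.31 in SRC-3-deficient cells and between −0.22 and 0.10 without RORγt.

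Whether a receptor responded differently in SRC-3-deficient and in RORγt-deficient cells was tested as the difference of the log2 fold changes, SRC-3 minus RORγt. None of the 15 members passed (lowest limma adjusted p 0.187, 2 with an unadjusted p below 0.05), against 1.67% of all genes (17.3% at an unadjusted p below 0.05). For Rara the difference was 0.29 (adjusted p = 0.187), from an estimate of 0.03 in SRC-3-deficient cells and −0.26 without RORγt. For Ppard it was 0.26 (adjusted p = 0.252), and for Thra −0.21 (adjusted p = 0.345), where the estimates were 0.16 in SRC-3-deficient cells and 0.36 without RORγt. The fall of Rara and the rise of Thra without RORγt are therefore not shown to be particular to that genotype.

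What lies downstream and upstream of the receptors was read from 11 lists: known target genes of 8 receptor types, genes that make or break down their ligands, and the chaperones that hold steroid receptors ready for ligand. They name 148 genes, of which 135 were measured and 94 passed the filter. Some genes stand on more than 1 list and are counted once in these totals, and Rxra, itself a member, is on the LXR list. In the SRC-3 comparison 0 of 94 changed by limma (lowest adjusted p 0.0726; 15 with an unadjusted p below 0.05, or 16.0%, against 12.5% of all genes). In the RORγt comparison 24 of 94 changed (25.5%, against 19.4% of all genes), 10 higher and 14 lower. The lists were chosen with earlier results of these data known, so these shares are no result about the list genes. The median log2 fold change over these genes was 0.02 in SRC-3-deficient cells and −0.01 without RORγt.

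**Figure D4:**
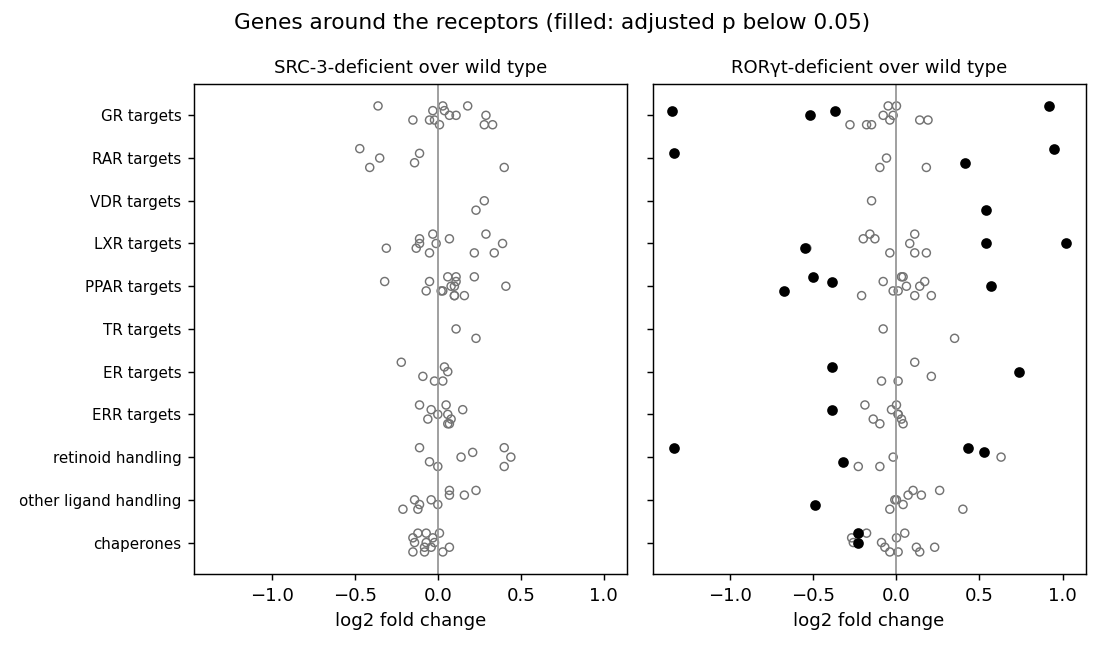
Log2 fold change of the list genes that passed the filter (1 circle per gene; filled, adjusted p below 0.05), SRC-3-deficient over wild type on the left and RORγt-deficient over wild type on the right, by list. No circle is filled on the left; on the right 24 different genes are, on both sides of 0.

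Glucocorticoid receptor targets split without RORγt. Of 14 tested, 1 rose and 3 fell (median −0.06). Sgk1, a serum- and glucocorticoid-induced kinase known to support Th17 cells in mouse, had 9.75 and 9.91 on the RORγt-deficient arrays, against 8.96 and 8.86 on the wild-type arrays (0.92, SE 0.09, limma adjusted p = 0.00119). Il1r2, the decoy receptor for IL-1, had 8.83 and 9.19 on the deficient arrays, against 10.49 and 10.24 on the wild-type arrays (−1.35, SE 0.18, limma adjusted p = 0.00369). Rgs2, a regulator of G protein signalling (−0.52), and Nfkbia, the NF-kB inhibitor (−0.37), also fell, each with adjusted p = 0.0125. In the SRC-3 comparison Sgk1 had 9.01 and 9.00 on deficient arrays, against 9.27 and 9.45 on wild-type arrays (−0.36, limma adjusted p = 0.155). Irs2, an adaptor of the insulin receptor, had an estimate of 0.33 there (limma adjusted p = 0.296). The list had no call in that comparison (median 0.03).

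The retinoid lists held changes in both directions without RORγt. Of 6 retinoic acid receptor targets tested, 2 rose and 1 fell (median 0.06). Stra6, the membrane receptor for retinol-binding protein, had 9.03 and 9.16 on the RORγt-deficient arrays, against 10.63 and 10.24 on the wild-type arrays (−1.34, SE 0.13, limma adjusted p = 0.00148). The integrin genes Itga4 (0.95, adjusted p = 0.0260) and Itgb7 (0.41, adjusted p = 0.0143), whose products pair as the gut-homing receptor α4β7, rose. Of 8 genes of retinoid handling tested, which include Stra6 again, the retinol dehydrogenase gene Rdh10 (0.43, adjusted p = 0.00738) and Rdh12 (0.53, adjusted p = 0.0183) rose, and Rdh11 (−0.32, adjusted p = 0.0273) and Stra6 fell (median −0.06). In the SRC-3 comparison Rdh10, which makes retinaldehyde from retinol, had 9.59 and 9.70 on deficient arrays, against 9.32 and 9.17 on wild-type arrays (0.40, SE 0.07, limma adjusted p = 0.0746) and did not pass. Rdh14 (0.14), Hic1 (−0.35) and Itga4 (−0.47) had adjusted p between 0.285 and 0.447 there, and the medians were −0.25 for the targets and 0.17 for retinoid handling.

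Targets of the lipid sensors also moved both ways without RORγt. Of 12 LXR targets tested, 2 rose and 1 fell (median 0.02). Abcg1, a cholesterol exporter, had 11.24 and 11.19 on the RORγt-deficient arrays, against 10.25 and 10.14 on the wild-type arrays (1.02, SE 0.07, limma adjusted p = 4.03e-04). Pltp, the phospholipid transfer protein gene, rose by 0.54 (adjusted p = 0.00892) and the fatty acid synthase gene Fasn fell by 0.55 (adjusted p = 0.00285). In the SRC-3 comparison Abcg1 had 10.02 and 10.01 on deficient arrays, against 9.68 and 9.56 on wild-type arrays (0.39, SE 0.07, limma adjusted p = 0.0726), and Fasn 11.95 and 11.94, against 12.26 and 12.25 (−0.31, SE 0.07, limma adjusted p = 0.119). Both pairs were apart without overlap and neither passed; the list's median was −0.02.

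Of 15 PPAR targets tested, 1 rose and 3 fell without RORγt (median 0.03). Cpt1a, which admits long-chain fatty acids to mitochondria, had 10.90 and 10.81 on the RORγt-deficient arrays, against 10.36 and 10.20 on the wild-type arrays (0.57, SE 0.07, limma adjusted p = 0.00328). The lipid droplet gene Plin2 had 11.09 and 11.29, against 11.92 and 11.82 (−0.68, SE 0.09, limma adjusted p = 0.00330). Angptl4, a secreted inhibitor of lipoprotein lipase (−0.39, adjusted p = 0.00657), and the peroxisome gene Pex11a (−0.50, adjusted p = 0.0141) fell. In the SRC-3 comparison Cpt1a had 11.51 and 11.49 on deficient arrays, against 11.06 and 11.12 on wild-type arrays (0.41, SE 0.07, limma adjusted p = 0.0746). Angptl4 had 8.31 and 8.25, against 8.60 and 8.61 (−0.32, SE 0.06, limma adjusted p = 0.0864). The 2 groups were apart for Cpt1a and for Angptl4 in both experiments, but in the SRC-3 experiment neither passed (list median 0.10).

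The other lists held few calls. Of 6 estrogen receptor targets tested, Igfbp4, an IGF-binding protein gene, rose (0.74, SE 0.08, limma adjusted p = 0.00173) and Tff1 fell (−0.39, adjusted p = 0.0131) without RORγt (median 0.06). Of 10 ERR targets Idh3a, a subunit of isocitrate dehydrogenase, fell (−0.39, adjusted p = 0.0271; median −0.02). Of 2 vitamin D receptor targets Atp2b1, a plasma membrane calcium pump gene, rose (0.54, adjusted p = 0.0104). Of 10 genes handling other ligands Hsd17b12 fell (−0.49, adjusted p = 0.0173; median 0.06), and of 14 chaperone genes Hspa4 (−0.23, adjusted p = 0.0246) and Hsp90aa1 (−0.23, adjusted p = 0.0441) fell (median −0.05). Neither of the 2 thyroid hormone receptor targets tested passed without RORγt (Bcl3 0.35, adjusted p = 0.0839; Klf9 −0.08, adjusted p = 0.563). Bcl3 passed in 5 alternatives (adjusted p from 0.00849 to 0.0213).

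The same lists had no call in the SRC-3 comparison. The smallest p values belonged to Myb (−0.22) and Nrip1 (−0.09) among estrogen receptor targets, Uqcrc1 (0.15) and Mfn2 (0.07) among ERR targets, and Atp2b1 (0.23) and Tnfsf11 (0.28) for vitamin D. Bcl3 (0.23) and Klf9 (0.11) were the pair of thyroid hormone targets. Hsd17b11 (0.23) and Sult2b1 (0.16) led ligand handling, and Fkbp5 (−0.15) and Hsp90aa1 (−0.14) the chaperones. Their adjusted p lay between 0.312 and 0.759, and list medians between −0.25 and 0.26 over all 11 lists.

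Of the 24 calls in these lists, 8 held in every alternative run: Sgk1, Il1r2, Stra6, Abcg1, Fasn, Cpt1a, Plin2 and Igfbp4. The other 16 were lost in at least 1 fit that left out a RORγt array. Without wild-type replicate 1 all 16 were lost (adjusted p from 0.0523 to 0.150), and without deficient replicate 1 it was 14 (0.0564 to 0.171). Without deficient replicate 2 (0.0567 to 0.176) and without wild-type replicate 2 (0.0564 to 0.192) it was 12 each. Hsp90aa1 was also lost under both other normalizations (limma adjusted p 0.0683 with new quantiles and 0.0607 with equal medians). It and Hspa4 were lost with no filter (0.0768 and 0.0507). Calls over all genes also became fewer whenever a RORγt array was left out, and the share that held in every run was not counted. Holding or losing a call is therefore not shown to be a trait of these genes.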

How the data were processed

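The files hold 1-colour Affymetrix mouse gene array values for 8 samples, 2 per group. The deposited values are log2 signals, for which the submitters' processing notes name RMA and Affymetrix Expression Console; RMA corrects background, quantile-normalizes and summarises each probe set. Versions and genome build are not given in the sources used here. The 35556 probe sets ranged from 3.50 to 15.03. Symbols came from the platform annotation: 21789 probe sets had 1 symbol, 1621 several and 12146 none, and only the first were used, with the brightest mean per symbol. All 37 members' symbols matched by gene ID to RefSeq (GRCm38.p6).

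Genes reaching 7.85, the median of all values, on at least 2 arrays were fitted with limma 3.58.1 (lmFit, eBayes) in R 4.3.3 on group means of all 8 arrays with no covariate. Tests were two-sided with Benjamini-Hochberg adjustment over all genes fitted, at a threshold of 0.05. Having 2 arrays per group limits precision throughout. A quantile normalization, shifted medians, no filter or one at 9.78, probe set means, an intensity trend, array weights, the replicate block, 4 arrays alone and leaving out each array were tried.

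The members and gene lists were chosen with earlier results of these data known. All members are named; of each other list, up to 6 genes past the threshold, otherwise up to 2 by smallest p. Nr1d1 and Eif2s3y were named beyond this rule, after their values were seen.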

Additional observations from a re-analysis of the deposited data

Results flagged for a closer look

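For 13 of the genes named, none of them a member tested, the changes in SRC-3-deficient and RORγt-deficient cells differed by the test of the difference itself. The difference is the log2 fold change of SRC-3-deficient over wild type minus that of RORγt-deficient over wild type (limma, adjusted over all genes). Of all genes 1.67% passed it. List genes past the RORγt threshold were named for that, and their RORγt estimates enter this difference. The count of 13 among named genes is therefore no result about the lists. Among targets of the receptors the difference was −1.28 for Sgk1 (adjusted p = 0.00596), 1.39 for Il1r2 (0.0448), 0.81 for Rgs2 (0.0402), 1.23 for Stra6 (0.0265), −0.63 for Abcg1 (0.0271), 0.71 for Plin2 (0.0399) and −0.68 for Igfbp4 (0.0307). Sgk1 had opposite signs, −0.36 in SRC-3-deficient cells (limma adjusted p = 0.155) and 0.92 in RORγt-deficient cells (0.00119), while for Abcg1 both estimates were positive, 0.39 and 1.02. Of the circadian and Th17 genes it was 0.99 for Nr1d1 (0.0101), 2.55 for Il23r (0.00325), 2.33 for Il17f (0.00325), 3.01 for Il17a (0.00343) and 1.80 for Ccr6 (0.00596). Il17a and Ccr6 were not detected in RORγt-deficient cells, so their signals there are limited by background and their differences are not exact sizes. For Ncoa3, the gene targeted in the SRC-3 experiment, it was −0.76 (0.0394).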

How the results depend on the processing

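By limma, 0 members were called in the SRC-3 comparison under all 17 alternatives (1 to 3 with an unadjusted p below 0.05), and likewise for the difference of the comparisons (0 to 5 over its alternatives). In the RORγt comparison the count of 2 became 1 with no filter, 6 with array weights, 4 with the replicate block and 5 with the 4 arrays alone, and lay between 0 and 3 when 1 array was left out (0 without RORγt-deficient replicate 1 or either RORγt wild-type array, 1 without deficient replicate 2). Beyond Thra and Rara, the calls gained were among Esrra (array weights, block, 4 arrays alone, and without either SRC-3 wild-type array), Nr2c2 and Rxrb (array weights, 4 arrays alone), Nr6a1 (array weights) and Pparg (block). No member's call reversed. Of all 11128 genes, 2157 passed in the main RORγt fit, 3679 with array weights, 3411 with the block and 3389 with the 4 arrays alone. The rise of the members' count under these 3 settings is therefore no result about the members.

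Over all genes the 25 calls of the SRC-3 comparison became 14 with the filter at 9.78, 47 with an intensity trend, 10 with array weights, 301 with the replicate block and 0 with the 4 arrays alone (827 at an unadjusted p below 0.05), and lay between 0 and 61 when 1 array was left out. The 2157 of the RORγt comparison became 3679 with array weights, 3411 with the block and 3389 with the 4 arrays alone, and lay between 486 and 2539. Replicates spread more in the SRC-3 groups (median SD across genes 0.07 in each) than in RORγt-deficient (0.04) and RORγt wild-type cells (0.05). The main fit pools this spread. The cause of these shifts was not tested. No label pairs samples of the same replicate number; deviations of same-numbered samples correlated at 0.54 in the SRC-3 and 0.00 in the RORγt experiment, across genes. Under the block Ncoa3 (adjusted p 0.00671) and the list genes Abcg1, Cpt1a, Rdh10, Fasn, Irs2 and Itga4 passed in the SRC-3 comparison (0.0221 to 0.0437 for the list genes), as did the CD8 T cell marker Cd8b1 (0.42, 0.0225); Ncoa3 also passed with an intensity trend (0.0464). Bcl3 and Cd68 passed in the RORγt comparison under the block, array weights and 4 arrays alone, and when a single SRC-3 array was missing (either wild-type one for Bcl3, either deficient one for Cd68). Members detected numbered 23 at the 90th percentile and 14 at the 99th, against 20. Signals near the limit can hide changes.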

Other observations

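The wild-type cultures of the 2 experiments had different levels of several receptors. Rara averaged 11.02 ± 0.03 in RORγt wild-type cells and 9.94 ± 0.02 in SRC-3 wild-type cells (SD, n = 2 each), and Ppard 10.72 and 9.68. Rxrb averaged 10.50 and 9.83. Nr3c1 (9.12 and 9.87) and Nr2c2 (10.72 and 11.34) were lower in RORγt wild-type cells. These gaps, between −0.75 and 1.08 on the log2 scale, were larger than any genotype difference of a member tested. The median of all values was 7.904 to 7.927 on the SRC-3 experiment's arrays and 7.764 to 7.804 on the RORγt experiment's arrays. Levels were compared as deposited, without removing this shift. Experiment, mouse line and culture cannot be told apart here, and the gaps were not tested.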
